A study of Homo sapiens with 6 samples.

Results

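The genes described here are antisense long non-coding RNA genes, 160 of the 60708 genes in the count files of this RNA sequencing study. They were chosen by name and by level. The symbol had to end in -AS or in -AS and a number, which held for 1847 genes, and the raw counts had to sum to at least 1500 over the 6 files. The summed count does not use the treatment, and all 160 genes passed the filter on low counts. The study treated wild-type U2OS cells, an established human osteosarcoma line, with the solvent DMSO or with 25 µM PDD00017273 for 4 days. PDD00017273 is a small molecule that blocks PARG, poly(ADP-ribose) glycohydrolase, which removes poly(ADP-ribose) chains from proteins. Each group had 3 libraries from biological replicates, called DMSO and PARGi below, and all cells were of the same line. For these genes the comparison asks how antisense RNAs differed with PARG inhibition and whether they did so in step with the sense genes they are named after.

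An antisense gene is transcribed from the strand opposite to a neighbouring gene, most often a protein-coding gene, and its RNA is not translated into a known protein. Some antisense RNAs start beside the sense promoter and run away from it, and others start far inside or beyond the sense gene and run across its exons. Such RNAs are known to act on the sense gene in some cases, by acting on its chromatin, its transcription or its mRNA, and elsewhere in the cell in others, while for many no function is known.

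Promoter sequences are shown for 5 members that differed between the groups. Each sequence comes from RefSeq (GRCh38.p14) and runs 5′ to 3′ on the strand of the antisense gene, from 250 bases before its start to 50 bases after it. The windows of the first 3 share bases with the window of the sense gene, and those of the last 2 do not. ZNF674-AS1 at chrX:46545240-46545539 (+ strand) was higher in PARGi, and its window shares 168 bases with that of ZNF674, whose start is 69 bases away. RAB4A-AS1 at chr1:229271105-229271404 (- strand) was lower, and its window shares 56 bases with that of RAB4A, with starts 43 bases apart. KMT2E-AS1 at chr7:105014092-105014391 (- strand) was lower, and its window shares 163 bases with that of KMT2E, with starts 64 bases apart. EMC3-AS1 at chr3:9986643-9986942 (+ strand) was higher and starts 24225 bases from EMC3. NECTIN3-AS1 at chr3:111069910-111070209 (- strand) is the gene with the highest log2 fold change, and its RefSeq start is 1857 bases from that of NECTIN3. The gene position given for NECTIN3-AS1 below comes from another annotation and reaches further upstream, so this window lies inside it. Whether a window at that further end shares bases with the window of NECTIN3 was not tested. Capitals mark GGGCGG in the first pair of sequences and TGACGTCA in EMC3-AS1, and the other sequences hold none of the 5 motifs searched.
ZNF674-AS1: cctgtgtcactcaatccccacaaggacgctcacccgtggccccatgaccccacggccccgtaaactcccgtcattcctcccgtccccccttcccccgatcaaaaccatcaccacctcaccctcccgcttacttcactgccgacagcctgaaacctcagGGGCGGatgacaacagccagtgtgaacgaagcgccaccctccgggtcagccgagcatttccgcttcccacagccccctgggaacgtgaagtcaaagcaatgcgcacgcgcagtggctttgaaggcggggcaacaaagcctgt
RAB4A-AS1: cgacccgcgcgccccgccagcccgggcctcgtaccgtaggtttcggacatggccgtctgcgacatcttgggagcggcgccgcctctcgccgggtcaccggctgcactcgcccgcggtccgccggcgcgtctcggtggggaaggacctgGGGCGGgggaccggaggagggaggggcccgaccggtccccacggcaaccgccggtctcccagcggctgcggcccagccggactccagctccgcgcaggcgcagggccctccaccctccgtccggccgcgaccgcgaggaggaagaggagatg
KMT2E-AS1: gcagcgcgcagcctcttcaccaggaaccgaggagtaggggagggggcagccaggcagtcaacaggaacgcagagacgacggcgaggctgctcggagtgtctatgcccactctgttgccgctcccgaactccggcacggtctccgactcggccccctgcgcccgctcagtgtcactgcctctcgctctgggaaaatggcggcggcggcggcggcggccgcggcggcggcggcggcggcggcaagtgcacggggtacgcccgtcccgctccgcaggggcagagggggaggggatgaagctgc
EMC3-AS1: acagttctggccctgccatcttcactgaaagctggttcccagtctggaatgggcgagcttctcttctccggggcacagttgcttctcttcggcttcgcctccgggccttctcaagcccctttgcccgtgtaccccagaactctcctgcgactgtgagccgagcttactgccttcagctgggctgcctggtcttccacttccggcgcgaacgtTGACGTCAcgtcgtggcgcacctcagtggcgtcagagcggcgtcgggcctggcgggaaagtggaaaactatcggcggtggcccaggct
NECTIN3-AS1: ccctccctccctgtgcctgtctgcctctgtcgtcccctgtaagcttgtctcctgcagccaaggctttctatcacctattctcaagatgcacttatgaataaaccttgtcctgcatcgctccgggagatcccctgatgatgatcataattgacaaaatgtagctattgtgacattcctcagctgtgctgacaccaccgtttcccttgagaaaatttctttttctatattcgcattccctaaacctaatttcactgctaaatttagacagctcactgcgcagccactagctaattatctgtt

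A promoter window was found for 121 of the 160 members. Some have more than 1 RefSeq window, of which 1 per member was counted. Motifs and shared bases can differ between windows of a gene, as for BSG-AS1, so the counts depend on the window taken. The 5 motifs were searched on both strands, and no printed sequence holds more than 1 match. GGGCGG, the GC box, was in 71 (58.7%) of these windows and in 45.0% of the 35116 RefSeq windows of all genes. CCAAT was in 33.9% of member windows against 34.6% of all, TATAAA in 4.13% against 11.5%, CACGTG in 9.09% against 7.26%, and TGACGTCA in 3.31% against 1.85%. Among members that fell, 16 of 29 windows held GGGCGG, and among those that rose, 5 of 10. The GC content of the members' windows had a median of 63.3%, above the 58.7% of all windows. Of the 106 members whose sense gene also had a window, 27 shared bases with it. Those 27 held 1 gene that rose, 6 that fell and 20 that did not pass the test.

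The libraries held 60286931 to 80605145 counts each. No pair of libraries was alike enough to be the same library. The osteoblast-lineage genes RUNX2 (68.3 to 84.5 CPM, counts scaled by library size), COL1A1 (4128 to 4659) and SPARC (1571 to 1687) were well expressed, whereas SP7 was near 0 (at most 0.0249 CPM). ALPL and SPP1 were low, and COL1A2 stood at 6.65 to 14.3 CPM. Among markers of other cells, EPCAM (2.98 to 3.78 CPM), CDH1, KRT5 and PTPRC were low, and CD3E, PECAM1 and CDH5 were at most 0.457 CPM. TERT, which U2OS cells do without, was at most 0.0249 CPM. The strand of the counts was examined with 225 genes that lie at least 95% inside the exons of a gene on the other strand with at least 20000 counts. They held a median of 0.0542% of that gene's whole count. The share was not scaled to the part of that gene's exons that they cover, so it is no upper limit on wrong-strand reads. At that share, wrong-strand reads from the sense gene would make up a median of 0.183% of an antisense gene's level. The figure was above 5% in 8 members, among them TUBA1B-AS1 (18.5%) and VIM-AS1 (7.08%). It takes the whole level of the sense gene in each of the 150 tested pairs, whatever the overlap, and is a rough figure rather than a ceiling. Exons of the 2 genes overlapped in 114 of these pairs.

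Most members were of low abundance. Their mean level ran from 3.64 to 219 CPM with a median of 8.79, and 86 were under 10 CPM while 7 were over 50 CPM. The 3 most abundant supplied 18.2% of all member counts. FGD5-AS1 (chr3:14920347-14948424, - strand, GENCODE 29 on GRCh38, as for all gene positions below), named after a guanine nucleotide exchange factor gene, stood first, with 221, 220 and 221 CPM in DMSO and 216, 219 and 216 CPM in PARGi. Its groups did not overlap but lay close together, and the log2 fold change was -0.02 ± 0.024 (SE, adjusted p = 0.513). NECTIN3-AS1 (chr3:110893708-111071553, - strand) had 123, 126 and 121 CPM in DMSO and 155, 152 and 155 CPM in PARGi. Every PARGi library was thus above every DMSO library, and its log2 fold change of 0.32 ± 0.026 (SE, adjusted p = 2.56e-09) was the highest of the 160. Per kb of exon NECTIN3-AS1 stood at 83.3 CPM and NECTIN3, a cell adhesion gene, at 3.76. OIP5-AS1 (chr15:41283990-41309737, + strand), a conserved RNA also called Cyrano, had 91.9, 93.8 and 91.7 CPM in DMSO and 93.4, 92.2 and 92.7 CPM in PARGi. These groups overlapped, and the log2 fold change, with a 95% confidence interval of -0.05 to 0.06, had no stable sign (-0.019 for OIP5-AS1 with upper-quartile scaling). CCDC144NL-AS1 (chr17:20868433-21002276, + strand) fell from 88.8, 90.5 and 88.2 CPM to 77.4, 75.9 and 75.9 CPM, and PSMA3-AS1 (chr14:58265365-58298134, - strand) from 68.7, 69.8 and 68.3 CPM to 62.8, 61.4 and 64.5 CPM. Both were lower in every PARGi library, with log2 fold changes of -0.22 ± 0.027 (SE, adjusted p = 1.00e-06) and -0.13 ± 0.029 (SE, adjusted p = 0.00134). CCDC144NL-AS1 lies in a duplicated stretch of chromosome 17, so reads may be shared with copies or left uncounted, depending on the counting options. PSMA3-AS1 shares exon sequence on its own strand with ARMH4, whose level was 18.2 ± 0.847 CPM with DMSO and 18.4 ± 0.622 CPM with PARGi (SD, n = 3).

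Among the antisense genes, falls with PARG inhibition were more numerous than rises. Of the 160 members, 43 (26.9%) fell, 15 (9.38%) rose and 102 did not pass the test, so 58 (36.3%) were called. A call is an adjusted p under 0.05 in edgeR's quasi-likelihood test, with Benjamini-Hochberg adjustment over all 20409 genes tested. Over all tested genes 24.3% were called, 13.2% as higher and 11.0% as lower. Among the 12236 tested genes that also reach 1500 counts, 34.2% were called, 20.2% as higher and 13.9% as lower. The share of antisense genes called was therefore near that of this set. The set shares the floor of 1500 counts but was not matched to the members in level. The share that fell (26.9% against 13.9%) was above that of the set and the share that rose (9.38% against 20.2%) below. Under upper-quartile scaling 14 members were higher and 49 lower, and over all genes the share of calls that were higher went from 54.5% to 40.5%. The count of members that rose rested in part on PARGi replicate 2: without it, 8 rose and 34 fell.

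**Figure D1:**
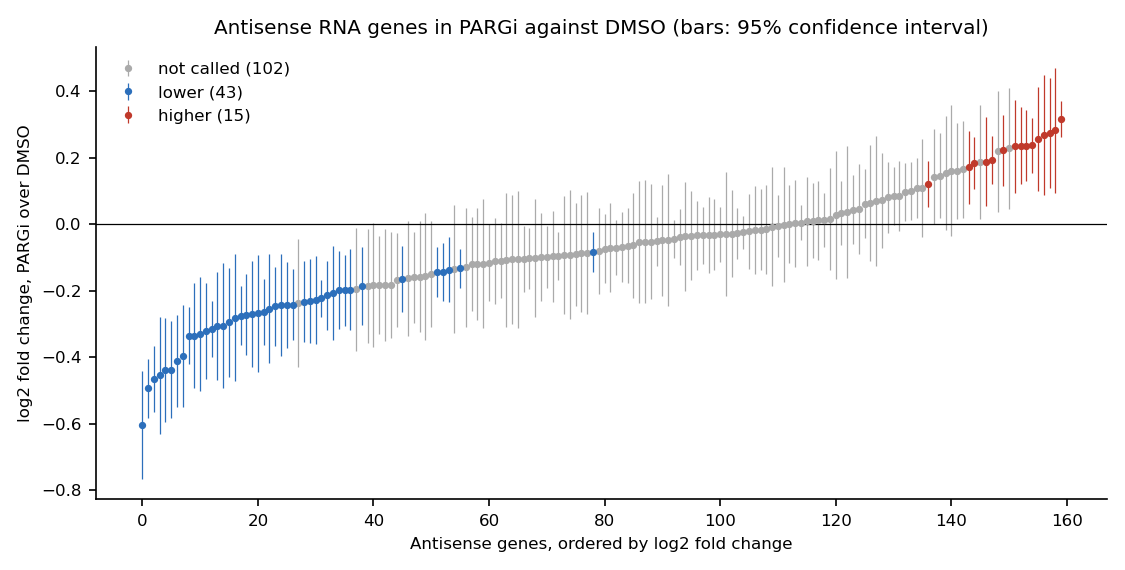
Log2 fold change of each of the 160 antisense genes (vertical axis, PARGi over DMSO), in order of size, with 95% confidence intervals. Genes that fell (43) reach down to -0.60 and genes that rose (15) reach up to 0.32, and most points lie below 0.

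The changes were small. The log2 fold changes ran from -0.60 to 0.32, only H1-10-AS1 reached 1.5-fold, and 26 members reached 1.2-fold. The median over all 160 was -0.08, against -0.01 over all tested genes and 0.01 over tested genes with at least 1500 counts. Below 0 lay 112 members (70.0%), and 51.9% of all tested genes. The spread between replicates was small as well, with a common biological coefficient of variation of 2.7% and standard errors of the members' log2 fold changes from 0.024 to 0.099. In 84 members the groups did not overlap, 60 with PARGi lower and 24 with PARGi higher. The same held for 38.0% of all tested genes (18.2% lower, 19.8% higher) and for 48.3% of those with at least 1500 counts (19.9% lower, 28.4% higher). Of the 58 called members, 56 had groups that did not overlap, and ZFHX3-AS1 and KCNJ5-AS1 were the exceptions.

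Added up, the members made 2529, 2503 and 2506 CPM in the DMSO libraries and 2428, 2432 and 2449 CPM in the PARGi libraries. Every PARGi library was below every DMSO library, by a small step: the means were 2513 ± 14.5 and 2436 ± 11.0 CPM (SD, n = 3). Without NECTIN3-AS1 the means were 2389 ± 15.1 and 2282 ± 10.3 CPM. The difference of -76.6 CPM was -119 with upper-quartile scaling and -30.3 over members with at least 6000 counts. It turned to 13.6 over the 27 members without exon overlap with any gene, although their median log2 fold change was -0.094. In the PARGi libraries 51, 47 and 54 of 160 members were above their own DMSO mean, so the lower level was seen in each of them. Fewer transcripts per cell and fewer cells with the transcript cannot be told apart in bulk RNA.

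The 10 members that fell furthest are named after genes of varied function. H1-10-AS1 (chr3:129315392-129326225, + strand) is named after a linker histone gene. It had 5.92, 6.64 and 6.80 CPM in DMSO and 4.15, 4.25 and 4.35 CPM in PARGi, a log2 fold change of -0.60 ± 0.078 (SE, adjusted p = 3.06e-06). The PARGi libraries lay far below the DMSO libraries. H1-10 itself fell from 348, 350 and 363 CPM to 300, 282 and 270 CPM (log2 fold change -0.32, adjusted p = 3.43e-08).

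KMT2E-AS1 (chr7:105013425-105014321, - strand) belongs to the gene of a SET-domain protein of the MLL family. Its libraries read 5.94, 5.10 and 5.35 CPM in DMSO and 3.78, 4.25 and 3.90 CPM in PARGi, with no overlap (log2 fold change -0.45 ± 0.085, SE, adjusted p = 0.000305). KMT2E fell too, from 96.7 ± 2.21 to 79.9 ± 1.54 CPM (SD, n = 3; adjusted p = 7.66e-08). MEIS1-AS3 (chr2:66426735-66433470, - strand) is named after a homeobox transcription factor. Its DMSO libraries had 7.88, 7.07 and 6.85 CPM and its PARGi libraries 4.97, 5.32 and 5.72 CPM. All 3 were lower than any DMSO library (log2 fold change -0.44 ± 0.076, SE, adjusted p = 0.000131), and MEIS1 fell from 42.1 ± 3.20 to 34.5 ± 0.519 CPM. ZNF503-AS2 (chr10:75401519-75408982, + strand) is paired with a zinc finger repressor gene. It had 8.89, 7.90 and 8.40 CPM in DMSO and 6.72, 6.11 and 5.84 CPM in PARGi (log2 fold change -0.44 ± 0.070, SE, adjusted p = 5.38e-05). ZNF503 fell by much the same factor, from 145 ± 6.75 to 108 ± 2.82 CPM. The difference between the changes of ZNF503-AS2 and ZNF503 had a 95% confidence interval of -0.17 to 0.16.

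DLGAP1-AS1 (chr18:3593732-3598352, + strand) lies within the gene of a postsynaptic scaffold protein. It fell from 27.1, 27.8 and 26.0 CPM to 20.1, 19.1 and 18.4 CPM, so the groups were well apart (log2 fold change -0.49 ± 0.043, SE, adjusted p = 7.33e-09). DLGAP1-AS2, a separate gene named after the same sense gene, fell as well (log2 fold change -0.26 ± 0.048, SE, adjusted p = 0.000216). ADIRF-AS1 (chr10:86965345-86971311, - strand), beside the gene of an adipogenesis regulator, had 29.8, 27.7 and 29.3 CPM in DMSO and 19.2, 21.2 and 22.3 CPM in PARGi. Again no PARGi library reached a DMSO library (log2 fold change -0.47 ± 0.047, SE, adjusted p = 8.75e-08). ADIRF itself was barely expressed, at 0.421 ± 0.0255 and 0.270 ± 0.0276 CPM (adjusted p = 0.0983). ADIRF-AS1 shares exon sequence on its strand with MMRN2, which was at 0.497 and 0.349 CPM.

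SGMS1-AS1 (chr10:50624951-50641451, + strand), at the gene of a sphingomyelin synthase, fell from 11.1, 9.45 and 9.90 CPM to 7.60, 7.26 and 7.97 CPM (log2 fold change -0.41 ± 0.067, SE, adjusted p = 5.84e-05). GASK1B-AS1 (chr4:158170752-158202877, + strand), at the gene of a Golgi-associated kinase, fell from 7.58, 7.84 and 6.76 CPM to 5.80, 5.75 and 5.28 CPM (log2 fold change -0.40 ± 0.074, SE, adjusted p = 0.000291). In both, all PARGi libraries were lower than all DMSO libraries. GASK1B fell from 261 ± 9.80 to 214 ± 2.78 CPM. TMEM144, with which GASK1B-AS1 shares exon sequence on its strand, had a log2 fold change of -0.23 (adjusted p = 0.171). PCBP1-AS1 (chr2:69962263-70103220, - strand), named after a poly(C)-binding protein, had 25.9, 25.2 and 24.1 CPM in DMSO and 19.9, 19.6 and 20.1 CPM in PARGi. The PARGi libraries were nearly equal and all lower (log2 fold change -0.34 ± 0.041, SE, adjusted p = 1.44e-06). PCBP1 fell less, from 396 ± 11.1 to 370 ± 5.54 CPM (adjusted p = 0.00754). RAB4A-AS1 (chr1:229258281-229271028, - strand), which starts beside the gene of an endosomal GTPase, had 7.53, 7.21 and 7.73 CPM in DMSO and 6.74, 5.83 and 5.38 CPM in PARGi. It was lower in every PARGi library (log2 fold change -0.33 ± 0.077, SE, adjusted p = 0.00219), and RAB4A did not pass the test (adjusted p = 0.426). The other 33 members that fell had log2 fold changes between -0.33 and -0.08.

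The members that rose most after NECTIN3-AS1 differed by smaller steps. DIRC3-AS1 (chr2:217282739-217336120, + strand), within the lncRNA gene DIRC3, had 3.56, 3.39 and 3.82 CPM in DMSO and 3.95, 4.61 and 4.51 CPM in PARGi. SLFNL1-AS1 (chr1:41014590-41043890, + strand) had 4.29, 4.26 and 4.84 CPM against 5.29, 5.55 and 5.40 CPM. PPP1R26-AS1 (chr9:135462727-135480777, - strand), at the gene of a protein phosphatase regulator, had 3.88, 3.89 and 3.61 CPM against 4.18, 4.84 and 4.61 CPM. All 3 genes had PARGi libraries above every DMSO library, with log2 fold changes of 0.28 (adjusted p = 0.0249), 0.28 (adjusted p = 0.0134) and 0.27 (adjusted p = 0.0272). These calls depended on the fit: PPP1R26-AS1 lost its call in 5 of 14 other fits, DIRC3-AS1 in 4 and SLFNL1-AS1 in 2, each time including the fit without PARGi replicate 2 (adjusted p up to 0.133, 0.116 and 0.0584).

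FLG-AS1 (chr1:152168125-152445456, + strand) and KLRK1-AS1 (chr12:10363769-10398506, + strand) rose although their sense genes, filaggrin of the epidermis and an activating receptor of natural killer cells, were too low to test. FLG-AS1 had 6.51, 5.75 and 5.70 CPM in DMSO and 6.57, 7.62 and 7.16 CPM in PARGi (log2 fold change 0.26 ± 0.075, SE, adjusted p = 0.0142). KLRK1-AS1 had 14.4, 15.4 and 14.1 CPM against 17.9, 16.0 and 17.8 CPM (log2 fold change 0.24 ± 0.052, SE, adjusted p = 0.00155). The groups lay apart in both, though in FLG-AS1 the lowest PARGi library was only just above the highest DMSO library. The call of FLG-AS1 was lost without DMSO replicate 3 or PARGi replicate 2 (adjusted p up to 0.0984). BCAN-AS1 (chr1:156637783-156641004, - strand), which starts beside the gene of the brain proteoglycan brevican, had 19.8, 20.2 and 20.6 CPM in DMSO and 23.9, 24.2 and 23.3 CPM in PARGi. Its groups were clearly apart (log2 fold change 0.24 ± 0.040, SE, adjusted p = 0.000107), while BCAN was at 1.63 ± 0.162 and 1.43 ± 0.263 CPM (adjusted p = 0.437). ZNF674-AS1 (chrX:46545493-46548408, + strand), named after a zinc finger gene, rose from 11.3, 12.4 and 11.0 CPM to 12.9, 14.0 and 13.9 CPM (log2 fold change 0.24 ± 0.056, SE, adjusted p = 0.00288). KRT10-AS1 (chr17:40819106-40836274, + strand), at a keratin gene, rose from 6.95, 6.77 and 6.40 CPM to 7.30, 8.06 and 8.18 CPM (log2 fold change 0.23 ± 0.068, SE, adjusted p = 0.0133). EMC3-AS1 (chr3:9986893-10006990, + strand), at the gene of a membrane protein insertase subunit, rose from 11.6, 12.3 and 12 CPM to 14.0, 14.6 and 13.3 CPM (log2 fold change 0.22 ± 0.052, SE, adjusted p = 0.00269). In these last 3 no library of the groups overlapped, and none of ZNF674, KRT10 and EMC3 passed the test. KRT10-AS1 lost its call without DMSO replicate 3, PARGi replicate 2 or PARGi replicate 3 (adjusted p up to 0.0789).

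**Figure D2:**
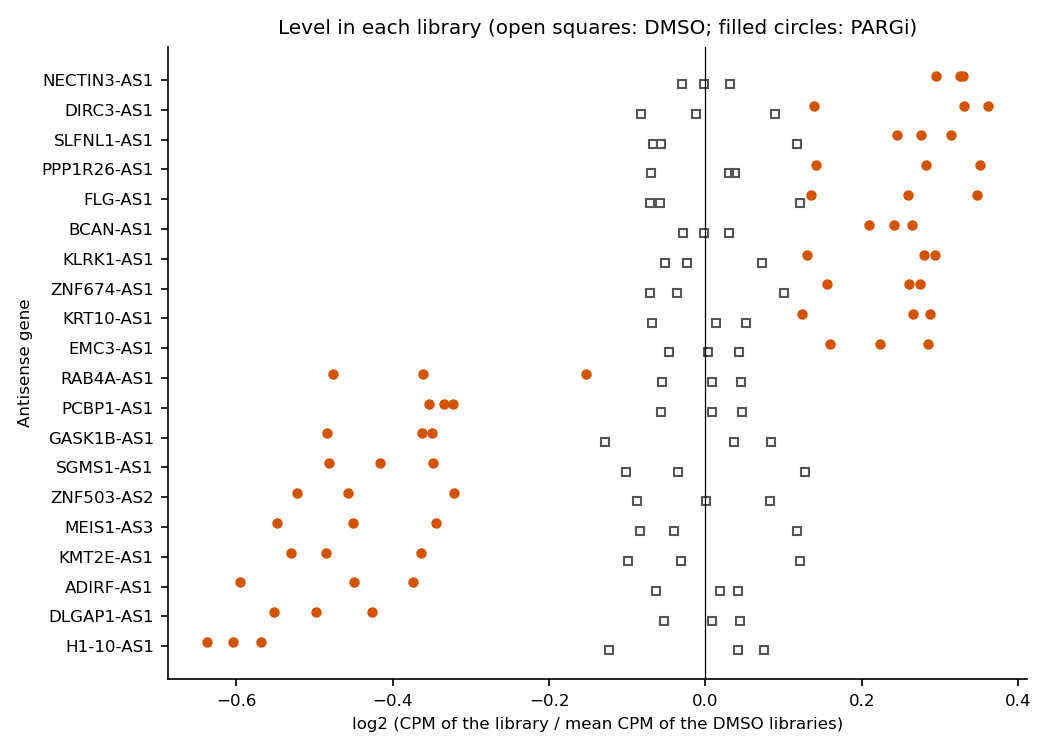
Level of the 20 antisense genes with the furthest falls and rises in each library, as log2 of its CPM over the mean of the DMSO libraries (horizontal axis). Open squares are the 3 DMSO and filled circles the 3 PARGi libraries, and the groups do not overlap in any of these genes, which were chosen for that.

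Other long non-coding RNA classes, told apart by their symbols, were compared with the members. Of 565 tested antisense genes under 1500 counts, 46 fell and 10 rose, with a median log2 fold change of -0.12. Of 353 divergent transcripts (-DT symbols), which start beside a gene and run away from it, 24 fell and 6 rose, with a median of -0.13. Of 545 long intergenic genes (LINC symbols), 73 fell and 26 rose, with a median of -0.11. Only 28 intronic transcripts (-IT) were tested, of which 1 fell and 0 rose. Among genes with at least 1500 counts, 16.4% of 55 divergent transcripts fell and 3.64% rose, and 22.9% of 118 LINC genes fell and 15.3% rose. Protein-coding genes with at least 1500 counts (11339) had 13.2% lower, 21.2% higher and a median of 0.02. That order was reversed under upper-quartile scaling, where 18.2% were lower, 15.3% higher and the median was -0.0074. The members then had 30.6% lower and 8.75% higher. More falls than rises were thus seen in the antisense, divergent and LINC classes alike under both scalings, and whether the shares differ between classes was not tested.

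**Figure D3:**
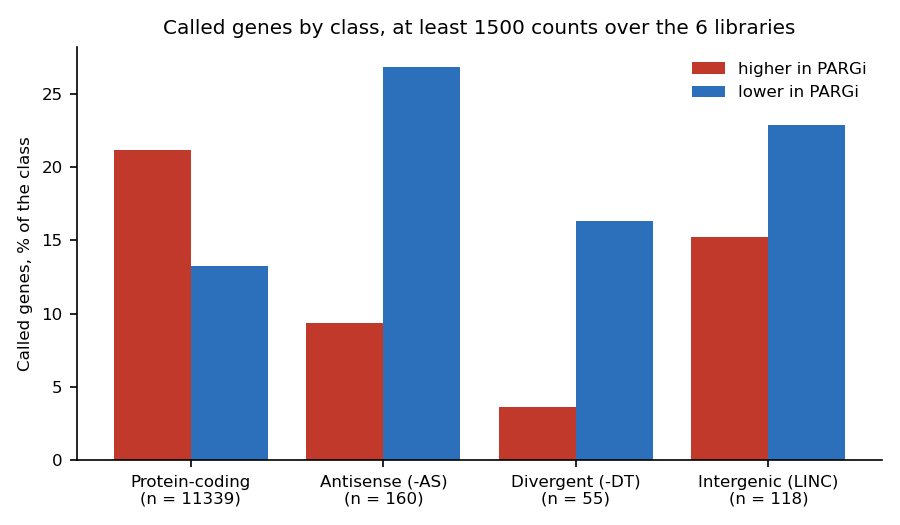
Share of each gene class called higher or lower in PARGi (vertical axis, % of the class), for genes with at least 1500 counts. Antisense genes had 26.9% lower and 9.38% higher, and protein-coding genes 13.2% lower and 21.2% higher under TMM scaling (18.2% lower and 15.3% higher with upper-quartile scaling).

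A sense gene was found for 159 of the 160 members, and HOXD-AS2, named after a gene cluster, had none. These were 156 genes, since BCAN, DLGAP1 and PTOV1 each have 2 members. Of the 147 sense genes tested, 33 fell and 18 rose (34.7% called), with a median log2 fold change of -0.04. The share called was near the 34.2% of tested genes with at least 1500 counts and above the 24.3% of all tested genes. By direction, 22.4% of the sense genes were lower and 12.2% higher, against 13.9% lower and 20.2% higher in the set with at least 1500 counts. The sense genes had no such floor on counts, so the sets are not alike. Falls thus outnumbered rises among the sense genes too. The 9 that were not tested had a mean of at most 0.142 CPM. Among 150 pairs with both genes tested, 89 (59.3%) had changes of the same sign: 68 with both below 0 and 21 with both above. Since 108 antisense and 89 sense changes were below 0, signs with no relation would agree in 54.1%. In 40 pairs only the sense gene was above 0, and in 21 only the antisense gene. Across the 150 pairs, which share libraries and are not independent, Pearson's r was 0.12 and Spearman's rho 0.11, a weak relation. Per kb of exon, the antisense gene was above its sense gene in 54 pairs, and the median ratio was 51.1%.

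The calls of both genes of a pair were then set side by side. Of the 42 antisense genes that fell and had a tested sense gene, 17 had a sense gene that fell too, 4 one that rose, and 21 one that did not pass the test. The 17 include the pairs of H1-10, KMT2E, MEIS1, ZNF503, GASK1B and PCBP1 above, and those of BAZ2B, a bromodomain gene, MAP3K4, a stress kinase, and GABPB1, a subunit of an ETS-family transcription factor. The 4 with a risen sense gene include ZFPM2-AS1 and NIFK-AS1. Of the 13 antisense genes that rose with a tested sense gene, 0 had one that rose, 2 one that fell (ZFHX3-AS1 and SLFNL1-AS1) and 11 one that did not pass the test. These counts were not tested against each other.

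**Figure D4:**
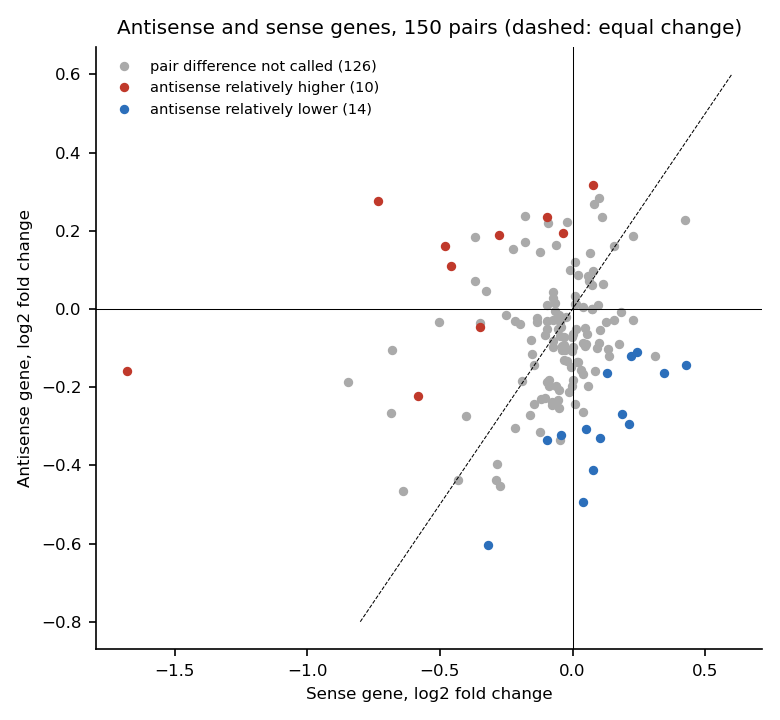
Log2 fold change of the antisense gene (vertical axis) against that of its sense gene (horizontal axis) for 150 pairs, with the dashed line marking equal change. The points scatter widely about the line (Pearson's r = 0.12), and coloured points are pairs whose changes differed in the test of the pair.

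Whether both genes of a pair changed by the same factor was tested directly, as an interaction of gene and treatment within each library. In 24 of 150 pairs (16.0%) the changes differed, 14 with the antisense gene relatively lower and 10 with it relatively higher. Over all 654 antisense-sense pairs tested, 9.94% differed, 7.65% with the antisense gene lower and 2.29% with it higher. The 654 include these 150, and the antisense genes of the other pairs had under 1500 counts. The shares are thus not matched in depth. The ratio of antisense to sense level did not overlap between the groups in all 14 pairs of the first kind and in 9 of the 10 of the second. In 4 of the 14 the antisense gene fell and the sense gene rose, in 5 the antisense gene alone passed its own test, in 3 the sense gene alone rose, and in 2 both fell. These counts depended on the fit. Without PARGi replicate 2, 14 pairs differed, 7 of them with the antisense gene lower, and without DMSO replicate 1 the antisense gene was lower in 9. The 10 pairs with it higher became 5 without DMSO replicate 2 or 3 or PARGi replicate 1 or 3. With no filter on low counts 12 pairs differed, and with limma on the ratio 13. Between the 12 other fits of the pairs, 9 of the 24 kept the call in every one, among them those of GAS6, ZFHX3, SGMS1, DLGAP1, ZFPM2, CCDC144NL and VLDLR. The first 5 of these had the smallest p.

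GAS6 encodes the secreted ligand of the TAM receptor kinases, and it fell from 418, 407 and 448 CPM in DMSO to 308, 307 and 312 CPM in PARGi (log2 fold change -0.46, adjusted p = 2.96e-11). GAS6-AS1 (chr13:113815630-113845744, + strand) had 22.5, 21.0 and 21.2 CPM in DMSO and 23.0, 24.4 and 22.5 CPM in PARGi, with overlapping groups (log2 fold change 0.11, adjusted p = 0.0744). The antisense level was 5.39%, 5.18% and 4.74% of the sense level in DMSO and 7.45%, 7.94% and 7.21% in PARGi. The ratio was higher in every PARGi library, and the changes differed by 0.56 on the log2 scale (95% confidence interval 0.42 to 0.71, adjusted p = 5.80e-12 in edgeR's interaction test). GAS6-AS1 shares exon sequence on its strand with TMEM255B, whose level was 31.3 ± 2.14 CPM with DMSO and 33.6 ± 0.584 CPM with PARGi (adjusted p = 0.0906). Depending on the counting options, part of the count of GAS6-AS1 may belong to TMEM255B, or reads over shared exons may be left uncounted.

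The homeobox transcription factor gene ZFHX3 fell from 102, 113 and 111 CPM to 90.6, 89.5 and 89.7 CPM (adjusted p = 5.15e-07). ZFHX3-AS1 (chr16:72665170-72791624, + strand) had 11.5, 10.5 and 12.8 CPM in DMSO and 12.9, 14.3 and 12.5 CPM in PARGi. Its groups overlapped, and its rise (log2 fold change 0.19, adjusted p = 0.0359) lost the call in 6 of 14 other fits. The difference of the pair was 0.47 ± 0.09 (SE, adjusted p = 1.52e-05). SGMS1-AS1, described above, made up 35.2%, 31.0% and 32.7% of the level of SGMS1 in DMSO and 24.1%, 22.2% and 24.2% in PARGi. SGMS1 stood at 30.7 ± 0.632 and 32.4 ± 0.743 CPM (adjusted p = 0.123), and the pair differed by -0.49 (95% confidence interval -0.68 to -0.30, adjusted p = 0.00011). For DLGAP1-AS1 the sense gene had 5.92, 5.72 and 5.91 CPM in DMSO and 5.37, 6.55 and 6.07 CPM in PARGi, which overlapped. The pair differed by -0.53 (95% confidence interval -0.75 to -0.32, adjusted p = 0.000156), the fall being on the antisense side.

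ZFPM2 encodes a cofactor of GATA factors, and it rose from 3.40, 3.56 and 3.32 CPM to 4.45, 4.46 and 4.86 CPM (log2 fold change 0.43, adjusted p = 0.000726). ZFPM2-AS1 (chr8:105546089-106060524, - strand) went from 22.3, 21.9 and 22.1 CPM to 19.3, 20.8 and 19.9 CPM (log2 fold change -0.14, adjusted p = 0.0151). The groups did not overlap in either gene, in opposite directions, although the call of ZFPM2-AS1 was lost without PARGi replicate 1 or 3. The pair differed by -0.57 ± 0.12 (SE, adjusted p = 0.000236).

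**Figure D5:**
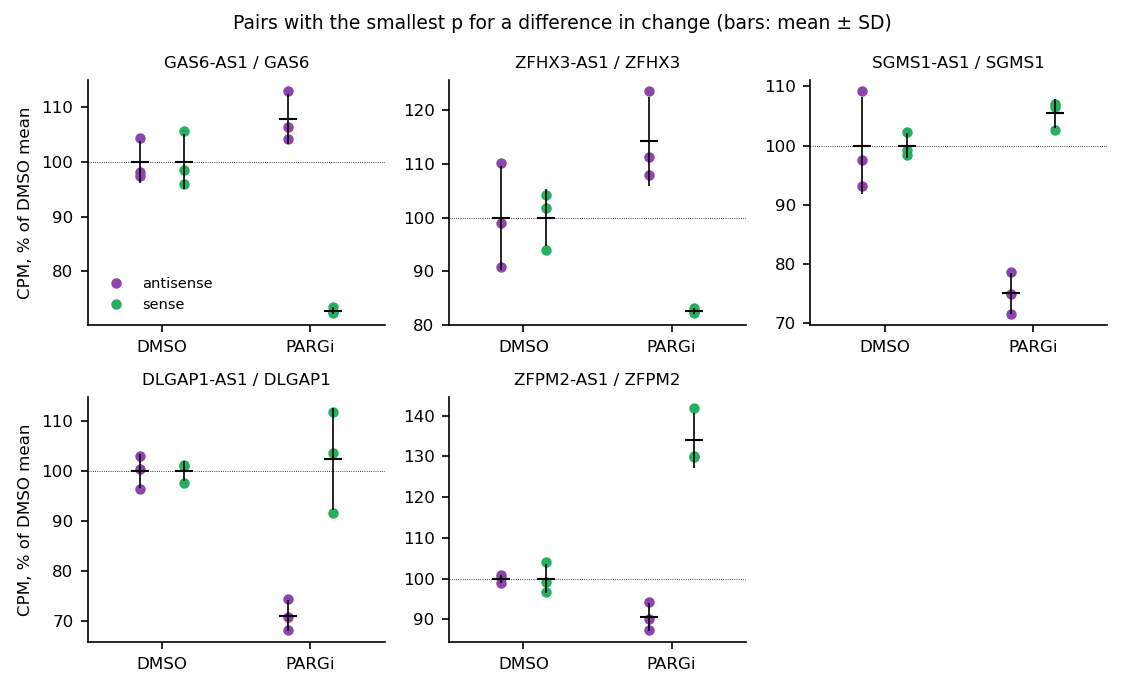
CPM of antisense and sense gene in each library as % of that gene's DMSO mean (vertical axis), for the 5 pairs with the smallest p for a difference in change. Points are libraries and bars are mean ± SD of 3, and the genes of a pair part in PARGi: GAS6 drops with GAS6-AS1 near its DMSO level, and ZFPM2 climbs with ZFPM2-AS1 below.

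Of the remaining pairs, that of VLDLR was picked after its values were seen, because the call held in every fit. VLDLR, a lipoprotein receptor gene, rose from 16.8, 17.5 and 17.2 CPM to 21.7, 21.8 and 22.1 CPM (log2 fold change 0.35, adjusted p = 1.12e-06). VLDLR-AS1 (chr9:2421597-2643359, - strand) had 5.72, 5.06 and 5.13 CPM in DMSO and 5.19, 4.36 and 4.71 CPM in PARGi. These overlapped (adjusted p = 0.174), and the pair differed by -0.51 ± 0.12 (SE, adjusted p = 0.000587). NIFK, the gene of a nucleolar protein that binds Ki-67, was likewise picked after its values were seen, and rose from 68.5, 70.6 and 68.4 CPM to 74.7, 75.7 and 76.3 CPM (adjusted p = 0.00114). NIFK-AS1 (chr2:121649650-121728481, + strand) fell from 15.6, 16.4 and 15.7 CPM to 14.4, 13.6 and 14.4 CPM (log2 fold change -0.17, adjusted p = 0.0132). Neither gene had overlapping groups, and the pair differed by -0.29 ± 0.09 (SE, adjusted p = 0.0116). The fall of NIFK-AS1 lost its call without DMSO replicate 2 or PARGi replicate 2 (adjusted p up to 0.0833), and the pair lost its call in 4 of the 12 other fits, the fit without PARGi replicate 2 among them (adjusted p up to 0.112). CCDC144NL fell further than its antisense gene, from 22.0 ± 0.981 to 14.7 ± 0.642 CPM (SD, n = 3; pair difference 0.36 ± 0.08, SE, adjusted p = 0.000596 for CCDC144NL-AS1). The pairs of NECTIN3-AS1, PCBP1-AS1, KRT10-AS1 and H1-10-AS1 lost their call in 6 or 7 of the 12 other fits.

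The arrangement of the genes was read from GENCODE 29. Exons of antisense and sense gene overlapped in 121 members, of which 31 fell and 10 rose. In 25 only the gene bodies overlapped, and 10 fell and 3 rose. In 10 the genes lay head to head, with starts within 1000 bases and no overlap, and 2 fell and 2 rose. Of the rest, 2 had another arrangement, 1 lay on the same strand as the gene it is named after, and 1 had no sense gene. None of these was called, and the same-strand pair is among the 150 tested. When the starts lay within 1000 bases, with or without overlap, 16 of 49 antisense genes fell and 2 rose. When they lay further apart on opposite strands, 27 of 109 fell and 13 rose. Across the 49 near pairs Pearson's r of the changes was 0.42 and Spearman's rho 0.28, and 31 (63.3%) had the same sign. Across 100 tested pairs with distant starts, r was 0.08 and rho 0.05, and 57 (57.0%) had the same sign. The change differed within the pair in 4 (8.16%) of the near pairs and in 20 (20.0%) of the distant ones. These counts were not tested against each other.

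Exons of 19 members overlap another gene on the same strand, where counts of the genes cannot be told apart with certainty. Of these, 7 were called: CCDC144NL-AS1, PSMA3-AS1, GABPB1-AS1, ADIRF-AS1, PCBP1-AS1, GASK1B-AS1 and KHDC1-AS1. Close to the count threshold, ARHGAP5-AS1 (1508 counts) and TMC3-AS1 (1525) were just inside, and HHIP-AS1 (1499) and PDCD4-AS1 (1496) just outside. Their log2 fold changes were -0.20, -0.28, -0.01 and -0.03 in that order.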

How the data were processed

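RNA was measured in 3 DMSO and 3 PARGi libraries, made from total RNA with a stranded kit, per the labels' protocols. The authors deposited unnormalised read counts for each gene, as whole numbers in a single column per library. The submitters' processing notes name cutadapt 1.18, STAR 2.7.3a, SAMtools 1.9, DESeq2 3.12, deepTools and hg38. The counting options and the annotation release are not given in the sources used here. Symbols were matched for 60507 genes. Positions and overlaps came from GENCODE 29 (GRCh38), which holds all 160 members, and promoter windows from RefSeq.

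Counts were tested with edgeR 4.0.16 (R 4.3.3): filterByExpr, TMM scaling and the two-sided quasi-likelihood test, with Benjamini-Hochberg adjustment over 20409 genes. CPM are TMM-scaled, and errors are SD over 3 libraries or the standard error of the fit. The pair test was an edgeR interaction on antisense and sense counts of each library, adjusted over 654 pairs. Depth per library is given in the report, and counting error covers sampling only. Both tests were checked on simulated data. Both groups use replicate numbers 1 to 3, but same-numbered libraries did not deviate together (r -0.0084 to 0.016), so no block was used.

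Named members were the 10 highest and 10 lowest called changes with non-overlapping groups and at least 1 CPM, the 5 most abundant, the 6 pairs with the smallest p, and 2 on each side of the count threshold. A gene that this rule selected is not reported here. The members and lists were chosen with earlier results of these data known. Alternatives were DESeq2 1.42.0, limma-voom and limma on ratios (limma 3.58.1), other scalings and count filters, a GC and length offset (loess span 0.3), a replicate block, each library left out, other count thresholds, and members without exon overlap. Figures used matplotlib 3.10.9.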

Additional observations from a re-analysis of the deposited data

How the results depend on the processing

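Of the 58 antisense calls, 33 held in all 14 other fits of the genes (26 lower, 7 higher), and no called value of a named member changed sign. OIP5-AS1, not called and near 0, was -0.019 with upper-quartile scaling. The median log2 fold change of -0.08 was -0.10 with upper-quartile scaling, -0.054 with a GC and length offset, -0.095 over members with at least 600 counts, -0.041 over those with at least 6000 and -0.094 over those without exon overlap with any gene. The summed difference of -76.6 CPM became -119 with upper-quartile scaling, -103 at 600 counts, -30.3 at 6000 and 13.6 without exon overlap, a change of sign. Without a filter 56.0% of pairs had the same sign, and 62.8% did at 6000 counts. Pairs whose change differed numbered 12 without a filter (8 lower, 4 higher) and 13 with limma on the log2 ratio (7 lower, 6 higher). At 600 counts, with 300 members, 76 antisense genes (16 higher, 60 lower) and 99 sense genes (39 higher, 60 lower) were called. In 23 pairs the antisense gene was relatively lower. At 6000 counts, with 44 members, 20 antisense genes (6 higher, 14 lower), 12 sense genes (3 higher, 9 lower) and 10 pairs (5 lower, 5 higher) were called. Without exon overlap, with 27 members, these were 13 antisense genes (5 higher, 8 lower), 8 sense genes (3 higher, 5 lower) and 4 pairs (2 lower, 2 higher). The lists at these thresholds hold other numbers of genes, so their counts of calls cannot be set directly against the 58 of the main list. The share of all genes called at these thresholds is not given here, and for the remaining settings the cause was not tested.

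Leaving out each library in turn gave 42 to 57 antisense calls, 8 to 15 higher and 33 to 42 lower, and a median of -0.078 to -0.062. Sense calls ran from 38 to 50 (14 to 18 higher, 23 to 33 lower) and same-sign pairs from 57.3% to 61.6%. Pairs whose change differed ran from 14 to 19 (7 to 14 lower, 5 to 7 higher), and the summed difference from -82.8 to -68.3 CPM.

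With the replicate number as a block, 56 antisense genes (14 higher, 42 lower) and 47 sense genes were called, and 15 pairs differed with limma on the ratio (8 lower, 7 higher). Pairing by number was not shown by the labels or the data.

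Precision is limited by depth and by 3 libraries per group: standard errors of the log2 fold changes reached 0.099, so changes of that size in the scarcest members were not detectable.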
